A study of Mus musculus with 9 samples.

Results

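The accessible chromatin of *Atrx* knockout (KO) clone B10 was compared with that of *Atrx* KO clone G7, with 3 ATAC-seq libraries of each. Peaks on chromosomes 1 to 19 of the 6 libraries were merged where they overlapped or touched, which gave 119242 regions, and the 87161 regions with a peak in at least 2 of 3 libraries of either clone were kept. Both clones were made in C3H/10T1/2 cells, an established line of mouse mesenchymal progenitor cells (MPCs), and both carry a CRISPR-Cas9 knockout of *Atrx*. Each is the progeny of 1 cell that had transiently expressed Cas9 and a guide, and the clones were made with different guides, so clone, guide and the cell each clone began from cannot be told apart. The 3 WT libraries of the series of 9 were not used. The labels do not say whether the 3 libraries of a clone came from separate cultures, so p-values measure only the spread between these libraries, which may be technical. The question was which loci and genes differ between cells that share the knockout.

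ATRX is a chromatin remodeller that works with DAXX to place histone H3.3 at repeats, telomeres and other heterochromatin. In ATAC-seq a transposase cuts DNA where it is not tightly packed, so promoters and enhancers in use appear as peaks, and regions packed into heterochromatin carry few of them. Much of the variable accessibility of a cell type lies at enhancers far from genes, while most active promoters are open in many cell types.

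The libraries were similar in most respects. B10 libraries held 79489 to 86650 peaks on these chromosomes and G7 libraries 74643 to 77706, and all 3 B10 libraries lay above all 3 G7 libraries (difference of the means 7401 peaks, exact two-sided permutation p = 0.1, the smallest that 3 against 3 allow). The covered length was 48.1 ± 1.004 Mb in B10 and 47.7 ± 1.14 Mb in G7 (SD, n = 3), so G7 peaks were fewer but wider. The share of covered bases held in common by a pair of libraries (Jaccard index) was 0.665 to 0.732 within a clone and 0.596 to 0.678 between clones, and these ranges overlap. Libraries with the same replicate number deviated together across the clones, replicate 1 the most (r = 0.537 across regions), and the main counts are therefore also given for replicates 2 and 3 alone. A peak lay at the *Atrx* start site in all 6 libraries, so the knockout itself cannot be seen in these lists. Of 14 mesenchymal progenitor markers, 12 had a start-site region with a peak in all 6 libraries, against 2 of 6 endothelial, 2 of 7 epithelial, 1 of 5 neural, 0 of 6 haematopoietic and 0 of 6 germline and pluripotent markers.

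Both clones shared most of their open chromatin. A peak in all 6 libraries was found at 52117 of the 87161 regions. A region was called open in 1 clone only when at least 2 of its 3 libraries and none of the 3 of the other clone held a peak. By this rule 7850 regions (9.01%) were open in B10 only and 4005 (4.59%) in G7 only. With the stricter rule of 3 of 3 against 0 of 3, the numbers were 3238 (3.71%) and 1312 (1.51%). When every library was reduced to its 74643 strongest peaks, 5372 regions were open in B10 only and 5357 in G7 only. With replicates 2 and 3 alone the numbers were 6854 and 3369. A clone left with 2 libraries had to hold a peak in both. By that rule the numbers were 4781 for B10 and 5418 for G7 without B10 replicate 1, and 4202 and 5751 without B10 replicate 2, so the order of the clones turned. They were 9843 and 1995 without G7 replicate 2, and 8988 and 1978 without G7 replicate 3. The lists hold no reads, so a region without a peak is one where none was detected.

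**Figure D1:**
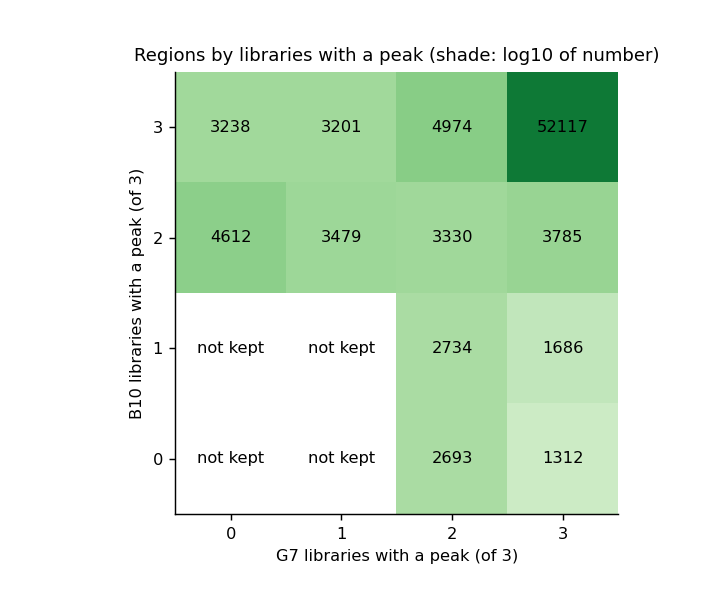
Number of regions by how many of the 3 B10 libraries (vertical axis) and of the 3 G7 libraries (horizontal axis) held a peak, with the shade on a log10 scale. The corner with 3 and 3 libraries holds 52117 regions, the upper left corner 3238 regions with a peak in B10 alone and the lower right corner 1312 with a peak in G7 alone.

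Sequences are shown for 7 regions that separated the clones in every library. Each is the 201 bases around the summit of the strongest peak, 5′ to 3′ on the plus strand of GRCm38, and capitals mark exact matches to the motifs that were searched, which are given further on. The first 4 were open in B10 only. They are the start sites of *Ptchd4* (chr17:42315829-42316029), which encodes a membrane protein related to the hedgehog receptor patched, and of *Saysd1* (chr14:20082906-20083106), and the intergenic regions nearest *Pdzph1* (chr17:58639781-58639981) and *Gm10801* (chr2:98375547-98375747).
Ptchd4: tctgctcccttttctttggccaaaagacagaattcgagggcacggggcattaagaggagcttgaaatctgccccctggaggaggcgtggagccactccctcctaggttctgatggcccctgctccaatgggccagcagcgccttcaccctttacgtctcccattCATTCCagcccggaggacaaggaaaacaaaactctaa
Saysd1: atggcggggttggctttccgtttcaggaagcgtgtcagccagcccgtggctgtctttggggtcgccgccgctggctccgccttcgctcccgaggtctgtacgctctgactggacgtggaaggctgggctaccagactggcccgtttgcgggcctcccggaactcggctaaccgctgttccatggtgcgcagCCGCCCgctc
Pdzph1: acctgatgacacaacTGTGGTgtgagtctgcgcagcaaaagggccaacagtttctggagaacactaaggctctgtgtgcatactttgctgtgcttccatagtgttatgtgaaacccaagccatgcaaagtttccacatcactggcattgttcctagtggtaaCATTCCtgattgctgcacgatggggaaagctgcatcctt
Gm10801: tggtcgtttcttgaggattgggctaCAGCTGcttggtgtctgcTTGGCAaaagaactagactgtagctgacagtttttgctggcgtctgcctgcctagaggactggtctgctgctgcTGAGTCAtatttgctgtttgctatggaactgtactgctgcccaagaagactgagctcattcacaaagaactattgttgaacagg

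The other 3 were open in G7 only. They are the shared start-site region of *Fam228b* and *Pfn4* (chr12:4768943-4769143), which are transcribed away from each other, and the intergenic regions nearest *Acan* (chr7:78990367-78990567), the gene of the main proteoglycan of cartilage, and *Myt1l* (chr12:29291063-29291263), a neuronal transcription factor.
Fam228b and Pfn4: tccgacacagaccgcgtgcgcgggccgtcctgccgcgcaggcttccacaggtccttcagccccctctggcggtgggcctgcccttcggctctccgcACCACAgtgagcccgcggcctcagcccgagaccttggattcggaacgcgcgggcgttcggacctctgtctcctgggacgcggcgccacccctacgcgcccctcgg
Acan: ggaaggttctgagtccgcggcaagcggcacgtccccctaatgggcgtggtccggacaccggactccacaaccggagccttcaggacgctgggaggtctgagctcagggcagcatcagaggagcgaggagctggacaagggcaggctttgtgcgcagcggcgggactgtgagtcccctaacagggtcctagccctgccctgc
Myt1l: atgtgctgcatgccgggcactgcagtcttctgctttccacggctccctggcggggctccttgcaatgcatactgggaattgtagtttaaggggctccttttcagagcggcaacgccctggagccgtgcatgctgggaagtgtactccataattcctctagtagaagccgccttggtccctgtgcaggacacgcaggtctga

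GC content was 55.2% and 67.2% in the windows at *Ptchd4* and *Saysd1*, 47.8% and 48.3% in those near *Pdzph1* and *Gm10801*, and between 57.2% and 73.1% in the 3 windows open in G7 only. Repeat-masked bases made up at most 15.4% of any of the 7 windows.

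Regions open in B10 only were not spread evenly along the chromosomes. Many followed each other in runs. A run was defined, after the data had been seen, as neighbouring kept regions none of which had a peak in any library of 1 clone. Without a G7 peak, 154 runs held 5 or more regions, together 1392 of the 7850 regions (17.7%) over 119.8 Mb. Without a B10 peak, 6 runs held 5 or more regions, together 32 of 4005 (0.799%) over 0.749 Mb. Runs of 10 or more regions numbered 45 without a G7 peak, on 14 chromosomes, and 0 without a B10 peak. Within these 45 runs, which span 58.2 Mb, the B10 libraries held 782, 750 and 673 peaks and the G7 libraries 2, 2 and 0. The number of DNA copies of these stretches in each clone was not measured here, and its part in the runs was not tested. With equal numbers of peaks per library, 1073 regions without a G7 peak and 47 without a B10 peak lay in runs of 5 or more, and with replicates 2 and 3 alone 1031 and 28. Unlike the total numbers of regions, the difference in runs was still there when the lists were of equal length. Leaving out replicate 2 or 3 of B10 brought the 1392 regions to 807 and 911. Those without a B10 peak numbered 49 without B10 replicate 1, and 21, 6 and 0 without G7 replicates 1, 2 and 3, so in no case did they come near those without a G7 peak.

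Examples of long runs follow. The densest of these held 26 regions over 559 kb (chromosome 3, 99379842 to 99939318). Its regions were nearest *Tbx15*, a T-box factor of limb and skeletal mesenchyme, or *Spag17*, a gene of the ciliary axoneme, and the run overlapped the *Spag17* gene. The B10 libraries held 29, 27 and 23 peaks there and the G7 libraries none, and all 3 start-site regions of *Tbx15* had a peak in all 6 libraries. Around *Ptchd4* a run of 24 regions covered 1.23 Mb (chromosome 17, 41223320 to 42456896), with 29, 23 and 20 B10 peaks and none in G7. The fold enrichment of a peak is its signal over the local background as the peak caller gave it. A region within the *Ptchd4* gene just beyond this run had a peak in every library, at fold enrichments of 22.5, 22.8 and 21.3 in B10 and 6.10, 5.72 and 7.57 in G7. Other runs of 20 to 26 regions lay at *Sorcs1* and *Ins1* on chromosome 19 (26 regions, 2.14 Mb), on chromosome 2 with no protein-coding gene inside (25 regions, 2.36 Mb), around *Brinp3* on chromosome 1 (24 regions, 3.66 Mb), around *Crispld1* and *Tfap2b* on chromosome 1 (23 regions, 2.55 Mb), and between *Tenm3* and *Aga* on chromosome 8, again with no protein-coding gene inside (20 regions, 2.94 Mb). The longest runs without a B10 peak held 6 regions each, at *Btbd11* on chromosome 10 (259 kb) and inside *Ctnnd2* on chromosome 15 (235 kb).

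**Figure D2:**
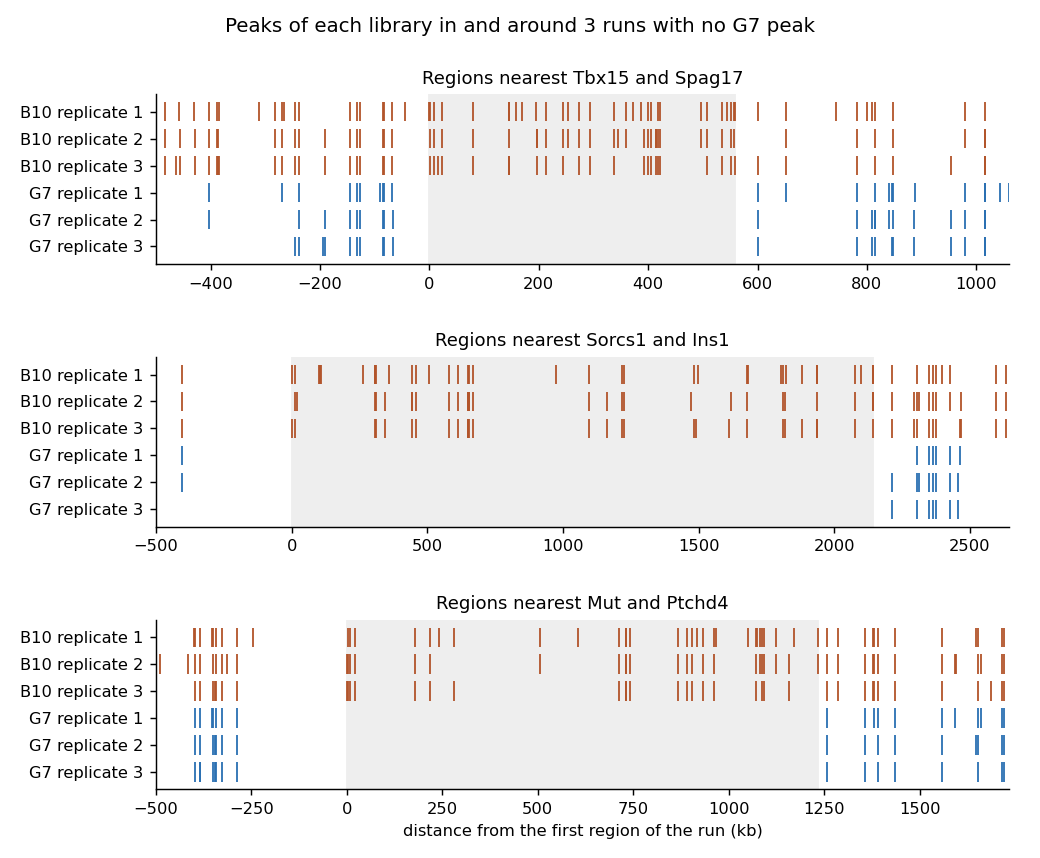
Position of every peak of each library (vertical lines, 1 row per library) in 3 runs without a G7 peak, shaded, and in 500 kb on either side, against the distance in kb from the first region of the run. B10 libraries held 20 to 36 peaks in each shaded stretch and G7 libraries held 0, while peaks of both clones lay outside it.

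The regions in these runs lay far from genes. Of the 1392 regions, 65.9% were intergenic and 2.44% lay at a start site, against 37.5% and 17.2% of all regions. Their median distance to the nearest protein-coding start site was 202 kb, against 36.8 kb for B10-only regions outside the runs, 23.3 kb for G7-only regions and 20.5 kb for all regions. Intronic ones lay in long genes, with a median gene length of 342 kb against 126 kb over all intronic regions. Median GC content was 42.8% against 49.3%. They were also steadier than other B10-only regions, since 62.8% had a peak in all 3 B10 libraries against 36.6% outside the runs, and their median rank was higher, at percentile 29.7 of the −log10 q-values of their library against 19.8. GC content and rank moved with membership of a run, and their part in it was not tested.

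The genes with many B10-only regions nearest to their start sites are given by the number of such regions. The axon guidance ligand gene *Efna5* had 42 of its 89 nearest regions open in B10 only, the cadherin gene *Cdh10* 37 of 44, *Cdh11* 36 of 45 and the netrin-G ligand gene *Lrrc4c* 26 of 29. Regions nearest *Cdh10* with a peak numbered 42, 40 and 36 in the B10 libraries and 3, 6 and 4 in the G7 libraries. *Cdh11* encodes the cadherin of mesenchymal and osteoblast cells. Its nearest regions with a peak numbered 40, 42 and 38 in B10 and 5, 6 and 6 in G7, and its own start site was among those open in B10 only. These genes were chosen for their B10-only regions, so the higher numbers of regions with a peak in B10 follow from that choice. The background for the number of B10-only regions of a gene is the share of 9.01% of all regions.

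Regions open in G7 only gathered less densely. The genes with most of them were *Flrt2*, which encodes a fibronectin leucine-rich adhesion protein (13 of 64 nearest regions), *Tmem45b* (10 of 16), *Zfp423* (10 of 20), *Csmd3* (9 of 70, beside 15 open in B10 only), and *Barx2* and *Kirrel3* (8 of 18 and 8 of 43). *Tmem45b* and the homeobox gene *Barx2* are neighbours in the 1 Mb window from 31 Mb of chromosome 9, which held the most G7-only regions of any window, 19 of 51, beside 3 open in B10 only. The next windows by number were neighbours at the end of chromosome 7, with 18 of 75 regions from 142 Mb and 17 of 76 from 143 Mb, against 2 and 1 open in B10 only. They hold the imprinted genes *Igf2*, *Ascl2*, *Kcnq1*, *Cdkn1c*, *Phlda2* and *Slc22a18*. Among the leading windows for B10, with 27 regions each, were those at *Tbx15*, *Spag17* and *Wars2* (of 38), and at *Gnai1* and *Gnat3* on chromosome 5 from 18 Mb (of 30), with 0 open in G7 only in both.

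*Zfp423* encodes a zinc finger factor that commits mesenchymal progenitors to the fat lineage. Its nearest regions with a peak numbered 9, 7 and 9 in the B10 libraries and 18, 19 and 20 in the G7 libraries. The gene was chosen for its G7-only regions, and this difference follows from that choice. Of its 10 G7-only regions, 8 had a peak in all 3 G7 libraries. An upstream start-site region (chromosome 8, 87960201 to 87960802) had peaks in G7 only, at fold enrichments of 5.96, 4.96 and 4.72. The main start-site region, 87958131 to 87959566, was open in all 6 libraries and ran the other way, at 17.3, 17.1 and 17.5 in B10 and 12.6, 11.6 and 12.4 in G7 (log2 difference 0.41 ± 0.07 SE, limma adjusted p = 0.038). A pair of intronic regions were stronger in G7, by -1.24 ± 0.21 (adjusted p = 0.042) and -1.20 ± 0.19 (adjusted p = 0.037) on the log2 scale with limma. The locus therefore differed between the clones in several elements, and not in 1 direction.

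Start sites were compared next, as a promoter that is open in all libraries of 1 clone and in none of the other is the plainest difference a peak list can show. Of 12340 protein-coding genes with a kept region within 1 kb of a start site, 130 (1.05%) had such a region open in B10 only (3 of 3 against 0 of 3) and 204 (1.65%) in G7 only. The lowest-ranked of the 3 peaks had a median percentile of 22.6 in the 130 genes and 34.6 in the 204, by −log10 q-value within its library. It ranked above percentile 70 in 8 and 20 genes, so most of these start sites did not hold strong peaks. B10 had the larger number of clone-only regions, but G7 the larger number of clone-only start sites. With equal numbers of peaks per library the numbers were 96 and 233, and with replicates 2 and 3 alone, where only 2 of 2 are asked for, 239 and 313. Another start-site region with a peak in all 6 libraries was present in 45 of the 130 and 45 of the 204 genes, so these differed between the clones at a start-site region and not at every one. In 79 of the 130 and 142 of the 204 genes, the region was the only start-site region kept.

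At the strongest B10-only start site, that of *Ptchd4*, the peaks ranked at percentiles 91.5, 92.2 and 92.4 of the −log10 q-values of their libraries, and at that of *Saysd1* at 84.4, 84.7 and 82.1. The start-site region shared by *Zcchc3*, a nucleic acid-binding protein of innate immunity, and *6820408C15Rik* ranked at 75.6, 75.7 and 75.8. These were strong peaks of B10, and no G7 library had a peak there. The others named by the rule were *Rsph3b*, a radial spoke gene of cilia, the cofilin phosphatase gene *Ssh2*, *Cdh19*, a cadherin gene of neural crest derivatives, *Soga3*, the cGMP phosphodiesterase gene *Pde9a*, and *Aim2*, a sensor of cytosolic DNA. Their lowest peaks ranked between percentiles 68.2 and 74.3. *Ssh2* and *Aim2* also had a start-site region with a peak in all 6 libraries. The start site of *Cdh11* ranked at 73.8, 65.6 and 69.7.

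In G7 the start-site region of *Fam228b* and the profilin gene *Pfn4* ranked at percentiles 90.3, 89.1 and 86.2. The start site of the zinc finger gene *Zfp13* ranked at 83.4, 82.5 and 82.1. The other named genes were *Onecut2*, a homeobox-type transcription factor of liver and neurons, *Pm20d2*, *Arhgap26*, which encodes a regulator of RhoA, *Gm10645* and *Tbc1d9*, which share a region, and the lipoprotein receptor gene *Vldlr*. Their lowest peaks ranked between 78.7 and 83.2. All start sites named by the rule met the rule with equal numbers of peaks, with the stricter q-value, with the stricter overlap and without each library in turn. These start sites were chosen for high-ranking peaks in every library of their clone and no peak in the other clone. Meeting the rule without each library, with equal numbers of peaks and with the stricter q-value therefore follows from that choice.

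**Figure D3:**
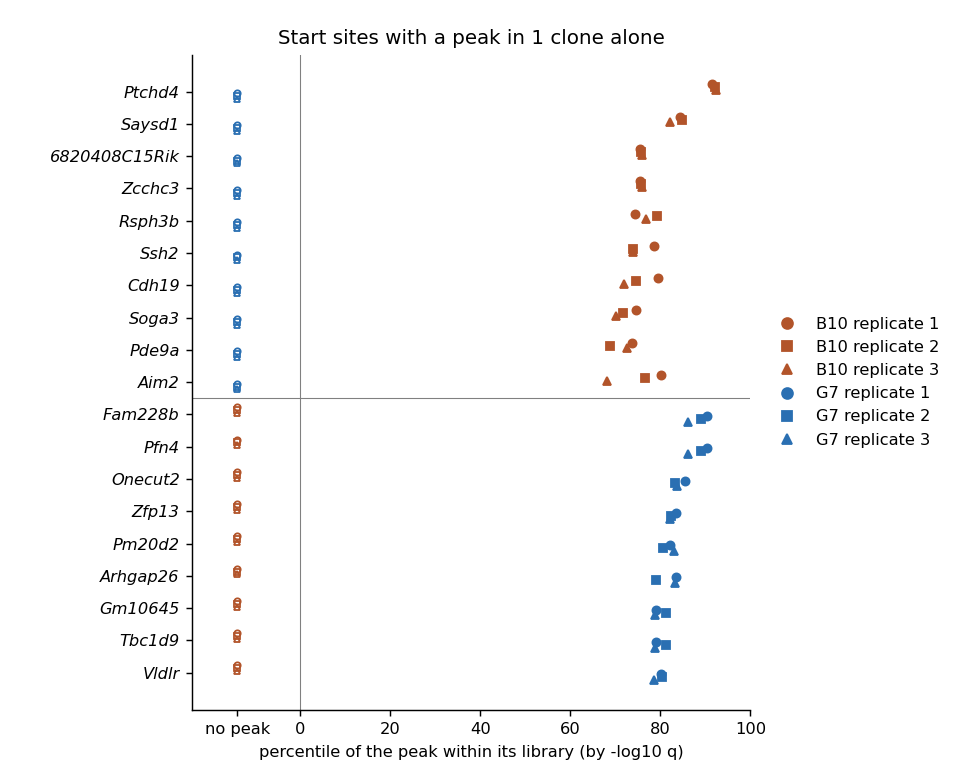
Percentile of the peak at the start site within its library, by −log10 q-value, for genes named by the rule, with 1 marker per library and open markers at the left for no peak. B10 libraries (upper genes) rank from 68.2 to 92.4 where G7 has no peak, and G7 libraries (lower genes) from 78.7 to 90.3 where B10 has no peak.

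The strongest regions away from start sites that were open in all 3 libraries of 1 clone and none of the other are given next. For B10 they were the intergenic regions nearest *Pdzph1* (fold enrichments 17.1, 17.2 and 16.7, at 253 kb), *Gm10801* (21.2, 22.0 and 18.6, at 286 kb), *Pcdh10* (20.1, 22.8 and 21.3, at 1432 kb), *Klhl29* (17.2, 17.7 and 17.3, at 394 kb) and *Acot10* (14.96, 17.6 and 16.1, at 483 kb). For G7 they lay 62.4 kb from *Acan* (15.8, 15.02 and 14.3), 237 kb from *Myt1l* (19.8, 16.3 and 15.3), 54.4 kb from the insulin receptor substrate gene *Irs2* (10.3, 8.10 and 7.82), in an intron of the guidance receptor gene *Robo1* (14.4, 13.1 and 13.2) and in an intron of *Erich5* (14.1, 11.5 and 11.8). All 5 B10 regions were farther from a protein-coding start site than any of the 5 G7 regions.

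The classes of region differed in the same direction. Among regions open in B10 only, 50.5% were intergenic (95% Wilson interval 49.4 to 51.6), 39.2% intronic and 4.65% at a start site (4.21 to 5.14). Among those open in G7 only, 38.2% were intergenic (36.7 to 39.7), 42.1% intronic and 11.5% at a start site (10.6 to 12.5). In regions with peaks in 3 of the 6 libraries and in both clones, which are of like rank (median percentile 17.5, against 21.02 and 18.5), 40.8% were intergenic and 5.33% at a start site. B10-only regions had the larger intergenic share and G7-only regions the larger start-site share of the 3 groups. These intervals cover counting error only, and neighbouring regions are not independent.

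Motifs were sought on both strands within 100 bp of the summit, and a match is a description of the letters and not a bound factor. AP-1 motifs (TGACTCA) were present in 15.3% of B10-only regions, 17.0% of G7-only regions and 17.3% of all regions, and in 20.9% of the B10-only regions in runs. SOX motifs (CCTTTGT) were present in 7.503% of B10-only regions (6.94 to 8.11), 4.14% of G7-only regions (3.57 to 4.81) and 5.48% of all. C/EBP motifs (ATTGCNNAA) were present in 3.10% (2.73 to 3.502), 1.47% (1.14 to 1.90) and 2.20%, and NFI sites (TTGGCA) in 20.1%, 16.4% and 17.2%. The GC-rich SP/KLF motif (GGGCGG) was present in 3.55% of B10-only, 10.5% of G7-only and 12.9% of all regions, the ETS motif (CCGGAAG) in 0.930%, 1.70% and 3.00% and the CTCF core motif in 0.433%, 0.724% and 1.49%. For these 3 motifs both groups of clone-only regions lay below all regions. The motif of GATA factors (AGATAAG) was present in 1.17%, 1.85% and 1.20%, TEAD (GGAATG) in 17.8%, 14.4% and 16.3% and RUNX (TGTGGT) in 23.7%, 21.6% and 22.4%. The E-box (CAGCTG) was present in 14.1%, 12.9% and 14.5%, homeobox (TAATTA) in 2.59%, 3.12% and 2.47% and FOX (GTAAACA) in 2.84%, 2.72% and 2.68%. Motif content moved with base content, as median GC was 45.8% in B10-only and 49.3% in G7-only regions, and the part of GC in these shares was not tested. Regions made mostly of repeat-masked bases were 6.18% of B10-only, 10.4% of G7-only and 9.13% of the regions with 3 peaks in both clones.

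Among the 52117 regions with a peak in all 6 libraries, the strength of the peak was compared with limma on the quantile-normalized log2 fold enrichment. At an adjusted p under 0.05, 293 regions (0.562%) were stronger in B10 and 298 (0.572%) in G7, with median log2 differences of 0.95 and -0.93. With the replicate number as a block, 996 and 913 were called, all 591 among them. Pairing by number was clear for replicate 1 (r = 0.537). It was weaker for replicates 2 and 3 (r = 0.332 and 0.273, against 0.194 and 0.170 when these 2 numbers were crossed). The number called depended on single libraries. The test called 50 and 101 regions without B10 replicate 1, 0 and 1 without B10 replicate 2, 3 and 12 without B10 replicate 3, 650 and 318 without G7 replicate 1, 38 and 9 without G7 replicate 2, and 1 and 0 without G7 replicate 3. Replicates 2 and 3 alone gave 613 and 453. The regions named here were chosen from calls in which the clones did not overlap. The clones did not overlap at any of the 591 called regions, nor at 10408 of the 52117 tested.

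The largest differences in favour of B10 were 2.86- to 3.86-fold. The region 518 kb from *Cdh5*, the gene of endothelial cadherin, had fold enrichments of 15.4, 17.6 and 16.4 in B10 and 3.78, 4.52 and 3.78 in G7 (log2 difference 1.95 ± 0.14 SE, limma adjusted p = 0.0091). It lies in the same stretch of chromosome 8 as the B10-only regions of *Cdh11*. The region in *Ptchd4* described above differed by 1.70 ± 0.12 (adjusted p = 0.0091 with limma). Regions nearest *Dcbld2*, *Negr1*, *Esp31*, *Efna5*, *Usp47*, *Galnt5* and *Frk* differed by 1.52 to 1.63. At start sites the leading genes were *Cacnb2*, a calcium channel subunit (13.4, 13.9 and 12.9 in B10 against 4.07, 3.31 and 6.31 in G7), *Gm5152*, *Vegfc*, the lymphatic growth factor (11.8, 10.5 and 11.3 against 3.78, 4.22 and 3.47), the interferon-inducible synthetase gene *Oas1c* (20.4, 17.3 and 19.3 against 7.84, 6.93 and 5.36) and the ubiquitin ligase gene *Trim44* (17.6, 15.01 and 15.8 against 5.52, 6.02 and 5.36).

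In favour of G7, an intronic region of *Ano2*, a calcium-activated chloride channel gene, had fold enrichments of 14.2, 11.95 and 12.8 in G7 and 4.05, 4.61 and 3.56 in B10 (log2 difference -1.76 ± 0.15 SE, limma adjusted p = 0.0123). The start site of *Kif17*, a neuronal and ciliary kinesin, had 16.2, 15.9 and 15.05 in G7 and 4.67, 3.997 and 6.80 in B10. That of *Pdgfd*, a platelet-derived growth factor that acts on mesenchymal cells, had 20.2, 14.5 and 16.4 in G7 and 7.47, 5.53 and 5.18 in B10 (-1.58 ± 0.19, adjusted p = 0.0213 with limma). The start sites of *Gm2a*, a cofactor of ganglioside breakdown, *Epn3*, an endocytic adaptor, and *Stx2*, a syntaxin, differed by -1.54, -1.53 and -1.49, and regions nearest *Bdh1*, *Defb30*, *Ttc17*, *Egln3* and *Intu* by -1.57 to -1.49. Of the regions called, 31 of 293 stronger in B10 and 89 of 298 stronger in G7 lay at a start site. These shares were 10.6% (95% Wilson interval 7.55 to 14.6) and 29.9% (24.95 to 35.3), against 24.6% of all regions with a peak in all 6 libraries. The share in B10 was below this background, and that in G7 was above it, with the lower end of its interval close to it.

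**Figure D4:**
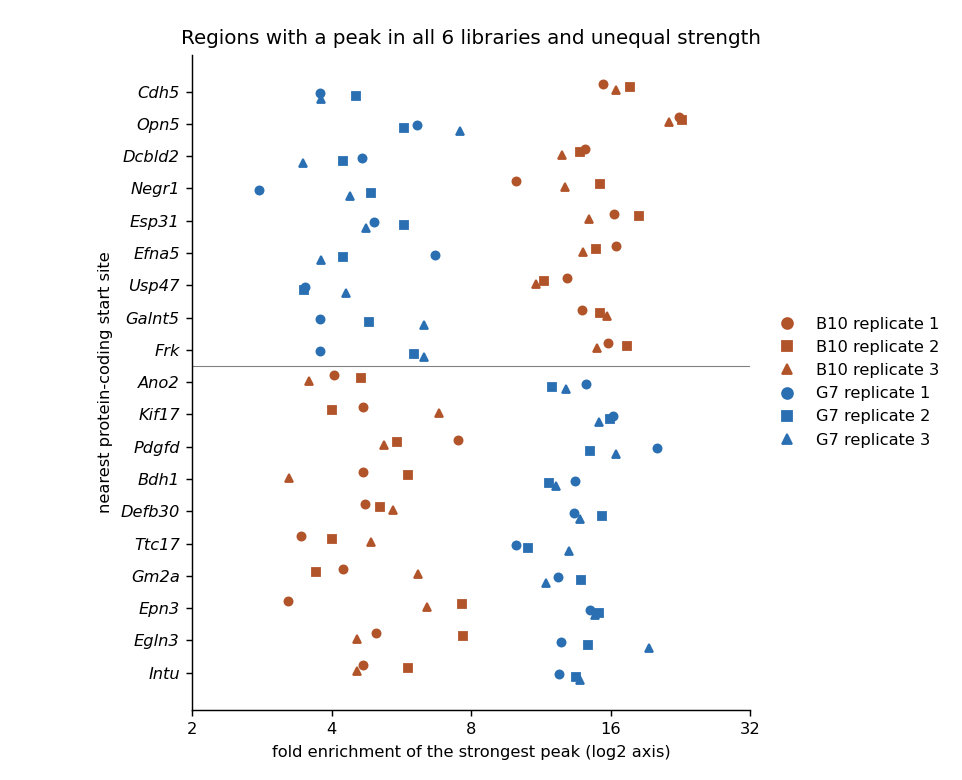
Fold enrichment of the strongest peak, on a log2 axis and as deposited, in each library at regions with the largest differences between the clones, named by the nearest protein-coding start site. In the upper regions B10 libraries lie between 9.97 and 22.8 and G7 libraries between 2.78 and 7.57, and in the lower regions the order is the opposite (*Opn5* labels the region within *Ptchd4*).

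Whole chromosomes were also shifted by a little. After each library was set to its own median, the median log2 fold enrichment of a chromosome did not overlap between the clones on 15 of 19 chromosomes (78.9%), with B10 higher on 6 and G7 on 9. On chromosome 13 it was 0.07, 0.06 and 0.06 in B10 and -0.03, -0.01 and -0.01 in G7, the largest difference (0.08). On chromosome 12 it was -0.05, -0.04 and -0.08 in B10 and 0.02, 0.01 and 0.02 in G7. Each exact permutation p was at its floor of 0.1 or above, and the lowest adjusted over 19 chromosomes was 0.127, so none could pass 0.05. The counts of clone-only regions followed the same chromosomes. B10-only regions made up 14.6% of those of chromosome 17, 12.3% of chromosome 1, 11.9% of chromosome 2 and 11.6% of chromosome 13, but 5.52% of chromosome 12. G7-only regions made up 8.71% of chromosome 12 and 2.42% to 2.82% of chromosomes 2, 13 and 17. Chromosomes 9 and 12 were the 2 with more regions open in G7 only than in B10 only. The number of copies of a chromosome was not measured here, and its part in these shifts was not tested.

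Within chromosomes the shifts differed in size between windows. In 10 Mb windows with at least 50 regions open in all libraries, the clones did not overlap in 76 of 239 (31.8%), 38 in each direction. On chromosome 13 the mean of B10 was higher in every such window, by 0.03 to 0.26. On chromosome 12 that of G7 was higher in every window except the one from 40 Mb, where B10 was higher by 0.03. The largest was from 80 Mb of chromosome 13, with medians of 0.06, 0.04 and 0.17 in B10 and -0.17, -0.24 and -0.11 in G7. The window from 100 Mb of the same chromosome differed by 0.168. In the opposite direction the window from 140 Mb of chromosome 7 had -0.13, -0.10 and -0.15 in B10 and 0.00, 0.01 and 0.05 in G7. It also had the largest share of G7-only regions of any such window, 73 of 384 (19.01%), against 5 open in B10 only. By the share of B10-only regions, 13 of 253 windows exceeded 25%, among them chromosome 4 from 70 Mb (48.8%) and chromosome 1 from 140 Mb (45.9%). For G7 0 windows exceeded 25%.

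**Figure D5:**
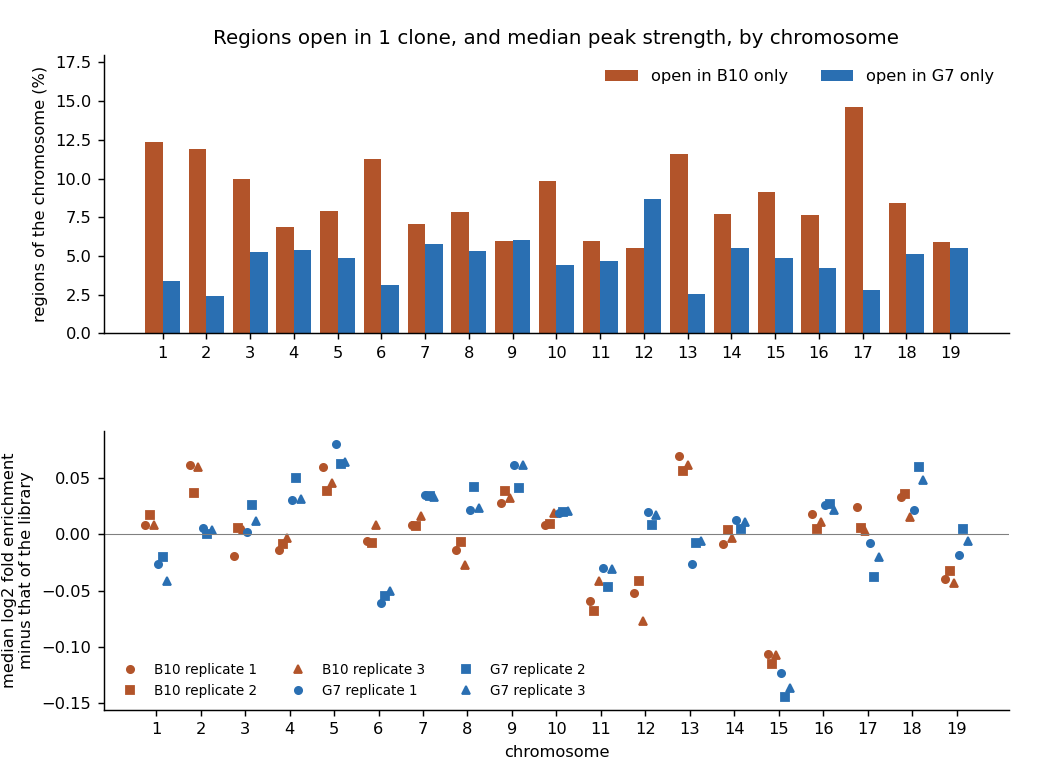
Share of the regions of each chromosome that were open in B10 only or G7 only (upper plot, bars, percent), and median log2 fold enrichment of the regions with a peak in all 6 libraries after subtraction of the median of the library (lower plot, 1 marker per library). Chromosome 17 has the largest B10-only share (14.6%) and chromosome 12 the largest G7-only share (8.71%), and on chromosomes 12 and 13 the markers of the clones lie apart in opposite directions.

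Genes of the mesenchymal lineages and of related pathways were read from fixed lists, against the background of 9.01% and 4.59% of regions and 1.05% and 1.65% of start sites for B10 and G7. Of 322 regions nearest 24 adipocyte genes, 19 (5.90%) were open in B10 only and 27 (8.39%) in G7 only, with 10 of the 27 at *Zfp423* and 6 at *Klf4*. A start site of *Cd36*, the fatty acid transporter, was open in B10 only, at percentiles 70.2, 61.7 and 65.3. The upstream start-site region of *Zfp423* was open in G7 only, while its main one was open in all 6 libraries. Of 166 regions nearest 19 bone genes, 14 (8.43%) and 8 (4.82%) were open in B10 and G7 only. A weak peak at the start site of the homeobox gene *Msx1* was present in B10 only (percentiles 19.5, 11.8 and 17.5), and one at *Alpl*, the alkaline phosphatase of mineralizing cells, in G7 only (22.5, 36.7 and 40.2). Regions stronger in B10 lay in an intron 136 kb from the nearest start site of *Runx2*, the master regulator of bone (0.87 ± 0.15, limma adjusted p = 0.044), and 39.6 kb from *Tnfsf11*, the osteoclast ligand (1.04 ± 0.18, limma adjusted p = 0.042).

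Cartilage genes had 28 of 352 regions (7.95%) open in B10 only and 17 (4.83%) in G7 only, with 0 start sites in either direction and *Sox6* and *Sox9* holding 8 and 7 of the 28. Muscle genes had 17 of 155 (10.97%) and 5 (3.23%), with 8 of the 17 at *Mef2c*, and a weak start-site peak of *Tnni1* in B10 only. *Tnni1* also had a start-site region with a peak in all 6 libraries. Tendon and limb mesenchyme genes had 31 of 213 (14.6%) and 12 (5.63%). Of the 31, 11 were nearest *Meis1*, a homeobox factor of the proximal limb, and 7 nearest *Tbx15*. All 11 at *Meis1* had a peak in all 3 B10 libraries. In the mesenchymal progenitor list, 10 of 175 regions (5.71%) were open in B10 only and 1 (0.571%) in G7 only, 0 of its 13 start sites separated the clones, and a region 60.6 kb from *Prrx1*, a homeobox factor of limb mesenchyme, had 13.3, 12.7 and 13.0 in B10 and 5.65, 5.06 and 5.71 in G7 (1.16 ± 0.13, limma adjusted p = 0.017).

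Signalling genes are given next. Of 454 regions nearest 48 Wnt genes, 44 (9.69%) were open in B10 only and 24 (5.29%) in G7 only. Start sites of the Wnt antagonists *Sfrp1* (percentiles 31.7, 41.9 and 52.4) and *Sfrp4* (22.6, 37.0 and 42.7) had peaks in G7 only, and the start site of *Wnt1* was stronger in G7, at 9.77, 11.5 and 10.5 against 5.86, 6.38 and 4.29 in B10 (-1.05 ± 0.18, limma adjusted p = 0.044). *Rspo3*, a secreted enhancer of Wnt signals, had 11 of its 13 nearest regions open in B10 only. Of the 13, those with a peak numbered 11, 11 and 11 in B10 and 1, 1 and 2 in G7. Of 591 regions nearest 46 TGF-beta and BMP genes, 72 (12.2%) and 27 (4.57%) were open in B10 and G7 only. *Bmp2* had 6 of 8 open in B10 only, and those of the 8 with a peak numbered 8, 6 and 7 in B10 and 0, 2 and 2 in G7. *Rspo3* and *Bmp2* were named for their B10-only regions, so the higher numbers in B10 follow from that choice. *Inhba*, an activin subunit, had 10 of 54 open in B10 only and 0 in G7 only. Of its 2 start-site regions, 1 had a peak in B10 alone (41.3, 30.8 and 28.0) and 1 had a peak in all 6 libraries. The BMP antagonist *Nog* had a start-site peak in G7 alone (26.7, 20.8 and 42.8), and one of *Smad3* was close to the detection limit (8.75, 7.88 and 0.473). Of the 3 start-site regions of *Smad3*, 2 had a peak in all 6 libraries.

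Zinc finger genes, whose clusters are known targets of heterochromatin, were the largest list. Of 322 with a start-site region, 12 (3.73%) had one open in G7 only, namely *Zfp13*, *Zfp61*, *Zfp105*, *Zfp423*, *Zfp503*, *Zfp583*, *Zfp618*, *Zfp710*, *Zfp791*, *Zfp879*, *Zfp941* and *Zfp981*, and 1 (0.311%) in B10 only, *Zfp740*. A start site in all 6 libraries was present in 309 of the 322. Of their 1214 nearest regions, 82 (6.75%) and 66 (5.44%) were open in B10 and G7 only, and *Zfp619* held 14 of the 82. Among imprinted genes, 31 of 166 regions (18.7%) were open in B10 only and 13 (7.83%) in G7 only, and 17 of the 31 were nearest *Ndn*, in a gene-poor stretch, at a median distance of 607 kb. The start-site region shared by *Peg10*, an imprinted retrotransposon-derived gene expressed from the paternal copy, and *Sgce* was open in B10 only, at percentiles 60.3, 55.1 and 54.5.

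The remaining lists follow. Of 59 regions nearest Hox genes, 6 (10.2%) and 2 (3.39%) were open in B10 and G7 only, with a start-site peak of *Hoxb5* in G7 alone (47.1, 31.6 and 46.2). Clustered protocadherins had 3 and 2 of 22 regions, and start-site peaks of *Pcdhb15* and *Pcdhb19* in B10 alone. Interferon genes had 6 (6.82%) and 7 (7.95%) of 88, with a weak start-site peak of *Isg15* in B10 alone (42.6, 8.90 and 17.5). Cell cycle inhibitors and p53 pathway genes had 10 (8.55%) and 3 (2.56%) of 117, with the start site of the p53 target *Perp* open in B10 alone (11.4, 45.4 and 41.9). All 25 of the 25 ATRX partners and heterochromatin genes with a start-site region had one open in all 6 libraries, and 7 (5.65%) and 3 (2.42%) of the 124 regions of these genes were open in B10 and G7 only. Near 1 of them, *Ezh2*, the methyltransferase of polycomb, a start-site region was stronger in B10 (15.6, 15.97 and 18.2 against 9.87, 9.34 and 8.51, log2 difference 0.76 ± 0.10 SE, limma adjusted p = 0.028). Of the marker lists of other tissues, endothelial genes had 14 (22.6%) and 1 (1.61%) of 62 regions, with 12 of the 14 nearest *Cdh5*. Epithelial genes had 10 (15.4%) and 2 (3.08%) of 65, with 8 of the 10 nearest *Grhl2*. Haematopoietic genes had 1 and 3 of 21, neural genes 3 and 3 of 33, and germline and pluripotent genes 1 and 1 of 16. The median log2 difference in strength was between -0.08 and 0.20 in all lists, against -0.00 over all regions.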

How the data were processed

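ATAC-seq was run on 3 libraries each of *Atrx* KO clone B10 and clone G7, and sample groups came from the labels. The authors aligned reads to mm10 and called peaks with MACS2 in each library, and no deposited peak has a q-value above 0.05. The MACS2 version is not given in the sources used here. The deposited lists give for each peak a fold enrichment (a ratio over the local background), a −log10 p-value, a −log10 q-value, and a score made by the authors' caller, which was used for nothing. The lists hold no read counts, so depth is unknown and the number of peaks per library stands in for it. Peak names mention an input, and how it was used is not given in the sources used here.

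Peaks of chromosomes 1 to 19 were merged where they overlapped or touched, and regions with a peak in at least 2 of 3 libraries of either clone were kept. Coordinates are GRCm38, the build of mm10. Genes and transcripts are from the GENCODE annotation of that build, and sequence is from RefSeq for GRCm38.p6. The nearest gene is the protein-coding gene with the nearest start site, and a start-site region lies within 1 kb of one. Python 3.11.15, numpy 2.4.6, pandas 2.3.3, scipy 1.17.1, pysam 0.24.0 and matplotlib 3.10.9 were used. Regions with a peak in all 6 libraries were tested with limma 3.58.1 (R 4.3.3) on quantile-normalized log2 fold enrichment of the strongest peak, with Benjamini-Hochberg adjustment over all 52117 regions, and the script was tested on simulated data. Fold enrichments printed per library are as deposited. For single values an exact permutation test, two-sided, was used. Intervals are 95% Wilson intervals.

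Same-numbered libraries deviated together (r = 0.537, 0.332 and 0.273 for numbers 1 to 3, against -0.395 to 0.194 for other pairs), so blocked counts are printed as an alternative. The standard errors, adjusted p-values and named regions are from the fit without the block. Permutation tests did not use the pairing either. Named genes were the 10 start sites per clone with the highest lowest percentile among those with 3 of 3 against 0 of 3 peaks, the 10 regions per clone with the largest limma differences and the 5 largest at start sites, the 5 genes per clone (with ties) with most clone-only regions and the 3 windows of 1 Mb with most, the 5 strongest clone-only regions per clone farther than 3 kb from a start site, and members of the gene lists that separated the clones. Some items that these rules name are not reported here. Runs were defined after their values were seen. The members and lists were chosen with earlier results of these data known. Alternatives were the stricter q-value, overlap, peak number, start-site distance, normalization, replicate block and leaving out each library.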

Additional observations from a re-analysis of the deposited data

How the results depend on the processing

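Depth limits the peak lists, since a region without a peak may hold signal below the threshold. Leaving out each library in turn gave 4202 to 11451 regions open in B10 only and 1978 to 5751 in G7 only, 149 to 187 and 222 to 288 genes with a start site in 1 clone only, 807 to 1598 and 0 to 49 regions in runs without a G7 and without a B10 peak, and 0 to 650 and 0 to 318 regions stronger in B10 and in G7. Asking for 3 of 3 libraries gave 3238 and 1312 regions and 676 and 5 in runs. Replicate 1 alone gave 20791 and 12319 regions. Start sites open in 2 or 3 libraries of 1 clone and none of the other numbered 258 and 372 genes. With 3 of 3 against 0 of 3, regions within 3 kb gave 246 genes in B10, against 130 within 1 kb. Replicates 2 and 3 alone, an alternative chosen after seeing the data, gave 239 and 313 such genes and 613 and 453 stronger regions. With the replicate number as a block, limma called 996 and 913, with −log10 p in place of fold enrichment 1933 and 1690, and with only regions above the median fold enrichment 115 and 108. The causes were not tested, apart from fewer libraries asked for a call or fewer regions tested, which change a count by construction. The blocked fit kept all 591 calls and ended none. Without B10 replicate 2 limma called 0 and 1 regions, with 6123 at an unadjusted p under 0.05, and without G7 replicate 3 it called 1 and 0, with 5564. None of the 26 named regions changed direction where it was fitted (9 of 26 were among regions above the median and 25 among those with exactly 1 peak per library). They were chosen for large differences without overlap, so the kept direction follows largely from that choice. Of the 26, 0 kept their call without B10 replicate 2. The stricter q-value and overlap moved no count of clone-only regions by over 1.5 times.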
